A study of Mus musculus with 12 samples.

Results

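Meiotic chromosomes are built on a protein axis, and 10 genes that encode this axis, its cohesin and the synaptonemal complex were followed in day-7 mouse testis: Sycp1, Sycp2, Sycp3, Syce1, Syce2, Tex12, Hormad1, Hormad2, Rec8 and Stag3. The members were all probe sets that the platform's annotation gives to exactly 1 of these genes, which were 10 of 45101 probe sets on the array, 1 for each gene. No probe set shared between several genes held any of the 10. The samples were whole testes at postnatal day 7 from homozygous Sohlh1 knockout (Sohlh1-/-), homozygous Sohlh2 knockout (Sohlh2-/-) and wild-type mice. All were on a hybrid background of C57BL/6 and 129S5/SvEvBrd. Each of the 3 groups had 4 Affymetrix arrays, and each array held RNA pooled from 3 testes, each from another animal. The spread between arrays is therefore a spread between pools, and 4 pools a group set the precision. The labels describe neither the deleted parts of the genes nor any treatment.

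The proteins SOHLH1 and SOHLH2 are transcription factors of the basic helix-loop-helix family found in spermatogonia, the dividing germ cells that precede meiosis. In meiosis, sister chromatids are held by a cohesin ring whose germ-cell subunits include REC8 and STAG3, and on this ring the axis proteins SYCP2, SYCP3, HORMAD1 and HORMAD2 assemble. SYCP1 then links the axes of paired chromosomes like the teeth of a zip, and SYCE1, SYCE2 and TEX12 lie in the middle of that zip. Mice lacking such components are known for arrest of spermatocytes and male infertility.

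The 2 targeted genes were read first, because they check the labels. Under the Sohlh1 knockout label, replicates 2, 3 and 4 had Sohlh1 signals of 50.2 to 104 and replicate 5 had 595, against 1125 to 1233 in wild type. Under the Sohlh2 knockout label, replicates 3-1, 4 and 5 had Sohlh2 signals of 73.2 to 157 and replicate 1 had 1847, against 885 to 1200 in wild type. Sohlh2 was 94.4 on the array labelled Sohlh1 knockout 5, and Sohlh1 was 126 on that labelled Sohlh2 knockout 1. On both arrays the low gene was thus the one their label does not name. For comparison, Sohlh1 was 465 to 563 on the arrays labelled Sohlh2 knockout 3-1, 4 and 5. Sohlh2 was 1556 to 1783 on those labelled Sohlh1 knockout 2, 3 and 4. Whether the labels of the 2 arrays were exchanged was not tested. The 3' to 5' signal ratio of the beta-actin control, a measure of RNA quality, was 3.56 on the array labelled Sohlh2 knockout 1 and 2.10 on that labelled Sohlh1 knockout 2, and 1.30 to 1.45 on the other 10. Groups below are the groups as labelled. Values of Hormad1, Sycp2, Syce1 and Syce2, and counts of genes, are also given without these 3 doubted arrays. That fit keeps only replicates 3 and 4 under the Sohlh1 knockout label, and 3-1, 4 and 5 under the Sohlh2 knockout label. Group means of 7 of 7 Sertoli cell and 7 of 7 germ cell markers lay above a signal of 48.6 in every group. That is the 40th percentile of all signals, and the probe set of highest mean was read for each marker. Passing it is therefore a weak check of the tissue label. Of 12 markers of pachytene spermatocytes and later stages, 3 in Sohlh1 knockout, 4 in Sohlh2 knockout and 2 in wild-type testes had a group mean above 48.6.

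The genes did not move as a block. Hormad1 rose in both knockouts and Sycp2 in the Sohlh2 knockout, while Syce1 and Syce2 fell in the Sohlh1 knockout. Rec8 stood higher and Sycp3 and Sycp1 stood lower in knockout means without passing the threshold, and Stag3, Tex12 and Hormad2 did not pass either. Differences are given on the scale of log2(signal + 14.2), and rose, fell and called mean a limma p-value under 0.05 after Benjamini-Hochberg adjustment over the 28694 probe sets tested. Both knockout comparisons use the same 4 wild-type arrays, so their values stand side by side and are not independent. A call in only 1 knockout is not a difference between the knockouts. In the direct test of Sohlh2 against Sohlh1 knockout arrays, given below, 0 of the 10 were called.

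Hormad1 encodes an axis protein that marks unsynapsed chromosomes. Its signals were 417, 539, 460 and 499 in Sohlh1 knockout replicates 2, 3, 4 and 5. They were 461, 472, 439 and 584 in Sohlh2 knockout replicates 1, 3-1, 4 and 5, and 240, 242, 333 and 317 in wild-type replicates 3, 4, 5 and 6, and later lists keep this order of replicates. Every knockout array lay above every wild-type array, and the lowest knockout value was that of the array labelled Sohlh1 knockout 2. The knockout means were 169% of wild type for Sohlh1 and 173% for Sohlh2. The log2 fold change of the Sohlh1 knockout was 0.74 (SE 0.14, limma adjusted p = 0.0159), and that of the Sohlh2 knockout 0.77 (SE 0.14, limma adjusted p = 0.0144). The first call was lost without wild type 4 (adjusted p = 0.0618) or the array labelled Sohlh1 knockout 3 or 5 (0.0528 and 0.0515). The second was lost without wild type 4 (adjusted p = 0.0612) or the array labelled Sohlh2 knockout 5 (0.0515). Without all 3 doubted arrays the Sohlh1 value was 0.80 (adjusted p = 0.0365), from Sohlh1 knockout replicates 3 and 4 alone. The Sohlh2 value was then 0.79 (adjusted p = 0.0158), from Sohlh2 knockout replicates 3-1, 4 and 5.

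Hormad2, the paralogue that also coats unsynapsed axes, was near the lower end of what the array could measure. Its signals were 37.7, 63.7, 80.5 and 59.98 in the Sohlh1 knockout, 85.0, 116, 76.8 and 83.0 in the Sohlh2 knockout, and 25.4, 43.6, 95.1 and 50.6 in wild type. The arrays of wild type overlapped those of both knockouts. Neither difference passed, at 0.20 in the Sohlh1 knockout (adjusted p = 0.804) and 0.70 in the Sohlh2 knockout (adjusted p = 0.329), and the SE of 0.31 was the largest among the 10 genes. Single arrays moved the Sohlh1 value widely, to -0.02 without wild type 3, 0.46 without wild type 5, 0.37 without Sohlh1 knockout 2 and 0.08 without Sohlh1 knockout 4. With a log offset at the median signal the differences were 0.09 in the Sohlh1 knockout and 0.36 in the Sohlh2 knockout. Only 2 of 4 wild-type arrays had Hormad2 above 48.6, the signal that a probe set had to exceed on 4 arrays to be tested.

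Sycp2, an axial element protein to which SYCP3 binds, had signals of 956, 753, 738 and 782 in the Sohlh1 knockout and 1202, 723, 913 and 799 in the Sohlh2 knockout. Wild-type signals were 454, 517, 570 and 672. All 8 knockout arrays lay above the 4 wild-type arrays, and the highest of all was the array labelled Sohlh2 knockout 1. In the Sohlh2 knockout Sycp2 rose by 0.69 on the log2 scale (SE 0.16, limma adjusted p = 0.0452). Leaving out single arrays ended that call in 9 of 12 fits, and its adjusted p reached 0.138 without wild type 4. The arrays whose removal ended it were wild type 3, 4 and 5, all those labelled Sohlh2 knockout except 3-1, and those labelled Sohlh1 knockout 3, 4 and 5. Without all 3 doubted arrays the Sohlh2 knockout difference was 0.55 and passed (adjusted p = 0.0418). It was also 0.55 but did not pass (adjusted p = 0.0826) without only the 2 arrays that read low for the gene their label does not name. In the Sohlh1 knockout the difference was 0.54 (SE 0.16, adjusted p = 0.108), which passed at adjusted p = 0.0283 once the array labelled Sohlh2 knockout 1 was left out.

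Sycp3, the main axial element protein, went the other way in its means. Its signals were 2344, 2174, 2115 and 2278 in the Sohlh1 knockout, 3112, 1945, 2959 and 2306 in the Sohlh2 knockout, and 2691, 3234, 3589 and 3065 in wild type. The Sohlh1 knockout arrays lay below all wild-type arrays, while 2 of the Sohlh2 knockout arrays, those labelled 1 and 4, fell within the wild-type range. The log2 difference was -0.49 (SE 0.14, adjusted p = 0.0859) in the Sohlh1 knockout and -0.30 (SE 0.14, adjusted p = 0.347) in the Sohlh2 knockout. The first passed once the array labelled Sohlh2 knockout 1 (adjusted p = 0.0280) or 3-1 (adjusted p = 0.0467) was left out, arrays that enter it only through the common estimate of the spread. The second was -0.17 (adjusted p = 0.571) with replicate 3-1 of the Sohlh2 label left out.

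**Figure D1:**
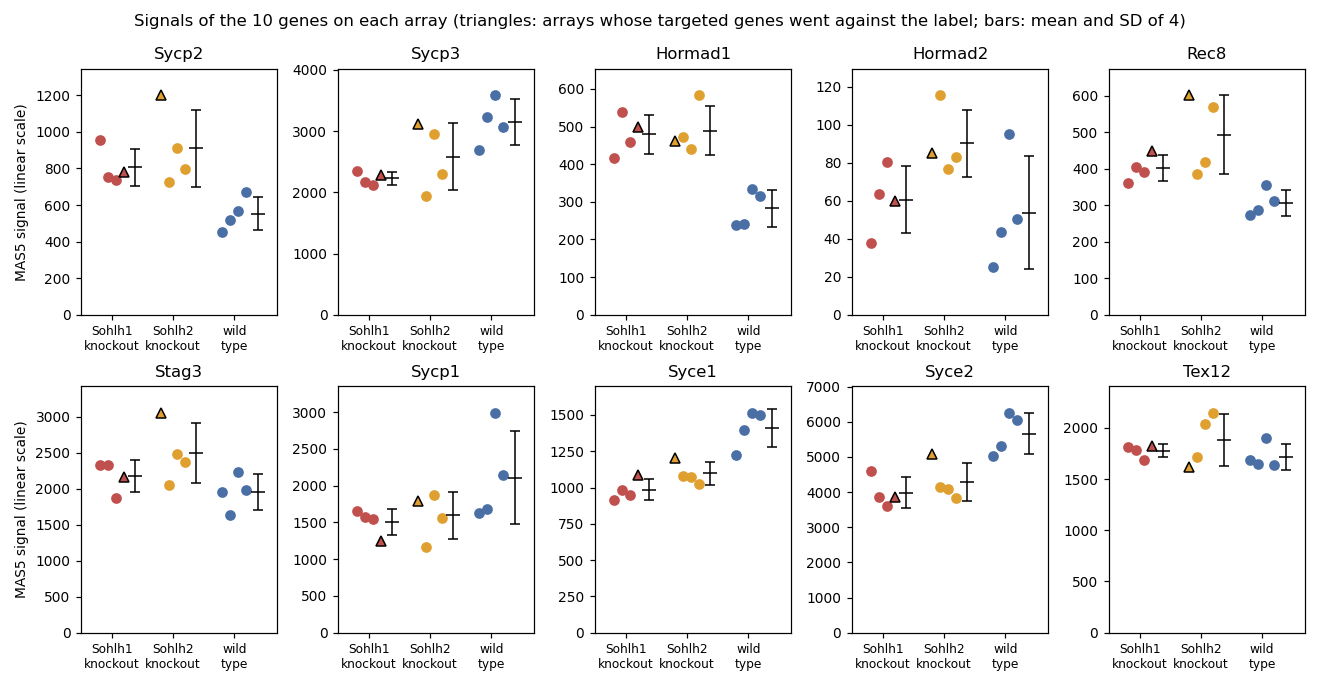
MAS5 signal (linear scale, from 0) of each gene on each of 12 arrays, with Sohlh1 knockout, Sohlh2 knockout and wild type from left to right, the mean and SD of 4 arrays beside the points, and triangles for the 2 arrays that read low for the gene their label does not name. All knockout points of Hormad1, Sycp2 and Rec8 lie above the wild-type points, and the arrays of Stag3, Tex12 and Hormad2 overlap.

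Of the cohesin subunits, Rec8 encodes the meiotic kleisin that closes the ring. It had signals of 362, 404, 390 and 448 in the Sohlh1 knockout, 602, 386, 417 and 568 in the Sohlh2 knockout, and 274, 287, 356 and 311 in wild type. Every knockout array was above every wild-type array, and the array labelled Sohlh2 knockout 1 was the highest. The difference did not pass in the Sohlh1 knockout (0.37, SE 0.15, adjusted p = 0.264) or in the Sohlh2 knockout (0.64, SE 0.15, adjusted p = 0.0518). The second passed at 0.75 (adjusted p = 0.0359) once the array labelled Sohlh2 knockout 3-1 was left out, and it was 0.54 (adjusted p = 0.0938) with replicate 1 of that label left out.

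Stag3 encodes the meiotic partner of the kleisin. Its signals were 2337, 2331, 1877 and 2163 in the Sohlh1 knockout, 3055, 2057, 2486 and 2366 in the Sohlh2 knockout, and 1953, 1635, 2238 and 1981 in wild type. Both knockouts overlapped wild type. The differences were 0.16 (SE 0.13, adjusted p = 0.601) in the Sohlh1 knockout and 0.34 (SE 0.13, adjusted p = 0.241) in the Sohlh2 knockout. Without the array labelled Sohlh2 knockout 1 the Sohlh2 value was 0.24. That array held the highest of the 12 signals for Sycp2, Rec8 and Stag3 and also the highest 3' to 5' ratio. With that ratio as a covariate the Sohlh2 knockout differences were 0.56 for Sycp2 (adjusted p = 0.0260), 0.59 for Rec8 (adjusted p = 0.0475) and 0.25 for Stag3 (adjusted p = 0.275), and on the same scale Sycp2 in the Sohlh1 knockout was 0.46 (adjusted p = 0.0475). With both high-ratio arrays left out the Sohlh2 knockout values were 0.55 for Sycp2 (adjusted p = 0.0340), 0.54 for Rec8 (adjusted p = 0.0693) and 0.24 for Stag3 (adjusted p = 0.323). The Sohlh1 knockout value of Stag3 was 0.08 without wild type 4.

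In the middle of the synaptonemal complex, Syce1 had signals of 917, 986, 952 and 1088 in the Sohlh1 knockout and 1206, 1082, 1075 and 1026 in the Sohlh2 knockout. Wild-type signals were 1226, 1396, 1515 and 1501, above all knockout arrays. The knockout means were 69.9% of wild type for Sohlh1 and 77.8% for Sohlh2. Syce1 fell in the Sohlh1 knockout (-0.51, SE 0.10, limma adjusted p = 0.0163) and did not pass in the Sohlh2 knockout (-0.35, SE 0.10, adjusted p = 0.1005). The Sohlh1 call was lost without wild type 4, 5 or 6, or without Sohlh1 knockout 4, and its adjusted p reached 0.0686 without wild type 5. Without the 3 doubted arrays both comparisons passed. The values were -0.53 (adjusted p = 0.0233) in the Sohlh1 knockout, from its replicates 3 and 4 alone, and -0.40 (adjusted p = 0.0363) in the Sohlh2 knockout.

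Syce2, which with TEX12 forms fibres of the central element, had signals of 4612, 3870, 3593 and 3851 in the Sohlh1 knockout. It had 5084, 4157, 4086 and 3842 in the Sohlh2 knockout, and 5020, 5307, 6254 and 6055 in wild type. Only the array labelled Sohlh2 knockout 1 reached into the wild-type range. Syce2 fell in the Sohlh1 knockout to 70.4% of wild type (-0.51, SE 0.11, limma adjusted p = 0.0294) and did not pass in the Sohlh2 knockout (-0.40, SE 0.11, adjusted p = 0.0945). The Sohlh1 call was lost without wild type 4, 5 or 6, or without Sohlh1 knockout 3, 4 or 5, and its adjusted p reached 0.109 without wild type 5. The Sohlh2 difference passed at -0.48 (adjusted p = 0.0229) once the array labelled Sohlh2 knockout 1 was left out. Without the 3 doubted arrays the values were -0.59 (adjusted p = 0.00848) in the Sohlh1 knockout, from its replicates 3 and 4 alone, and -0.48 (adjusted p = 0.0104) in the Sohlh2 knockout.

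Sycp1, the transverse filament, had signals of 1661, 1577, 1549 and 1253 in the Sohlh1 knockout, 1792, 1165, 1871 and 1562 in the Sohlh2 knockout, and 1626, 1682, 2992 and 2145 in wild type. Wild type 5 stood far above the others, and both knockouts overlapped wild type. The differences of -0.44 (SE 0.19, adjusted p = 0.278) in the Sohlh1 knockout and -0.38 (SE 0.19, adjusted p = 0.403) in the Sohlh2 knockout did not pass. Without wild type 5 they were -0.26 in the Sohlh1 knockout and -0.20 in the Sohlh2 knockout, and the Sohlh2 value was -0.24 without Sohlh2 knockout 3-1.

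Tex12, the partner of SYCE2, stayed close to wild type in its means. Its signals were 1809, 1787, 1683 and 1820 in the Sohlh1 knockout, 1617, 1715, 2034 and 2146 in the Sohlh2 knockout, and 1684, 1642, 1898 and 1638 in wild type. The log2 difference was 0.05 (95% interval -0.17 to 0.27, adjusted p = 0.858) in the Sohlh1 knockout and 0.12 (95% interval -0.09 to 0.34, adjusted p = 0.641) in the Sohlh2 knockout. With single arrays left out these ran from 0.03 to 0.10 in the Sohlh1 knockout and from 0.06 to 0.19 in the Sohlh2 knockout. The upper end of the Sohlh1 interval lies below the lower end of the Hormad1 interval in that knockout (0.43 to 1.05).

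**Figure D2:**
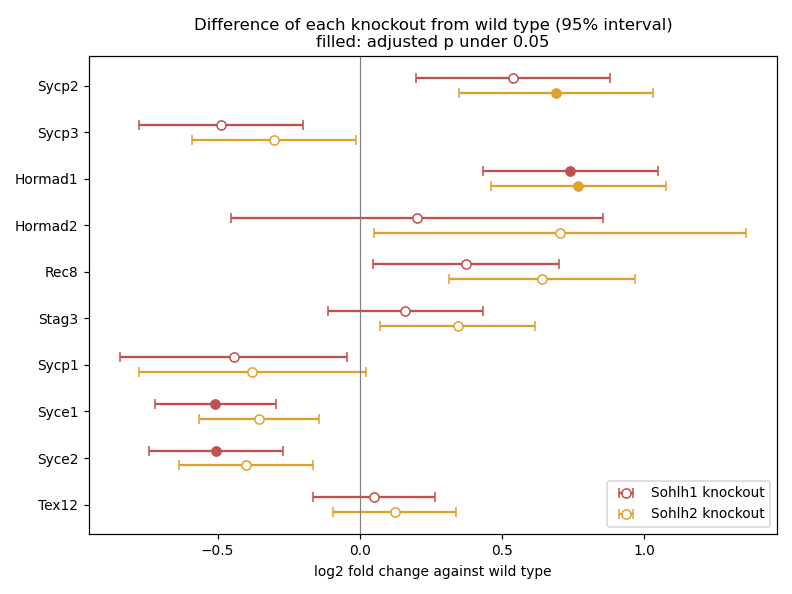
Log2 fold change against wild type of each gene, with the Sohlh1 knockout above the Sohlh2 knockout in each row and bars for the 95% interval of the limma fit; filled points have an adjusted p under 0.05. Hormad1 is filled in both comparisons, Sycp2 in the Sohlh2 knockout, and Syce1 and Syce2 in the Sohlh1 knockout.

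Counted together, all 10 genes passed the filter on dim signals. In the Sohlh1 knockout 3 of 10 were called, beside 2.09% of all probe sets tested; 1 was higher, beside 0.707%, and 2 were lower, beside 1.38%. In the Sohlh2 knockout 2 of 10 were called, beside 1.55% of all probe sets; both were higher, beside 0.606%, and none was lower, beside 0.944%. At an unadjusted limma p under 0.05 the counts were 7 of 10 in the Sohlh1 knockout and 8 of 10 in the Sohlh2 knockout, against 14.9% and 13.5% of all probe sets. Knockout and wild-type arrays were apart for 6 of 10 genes in the Sohlh1 knockout and 4 of 10 in the Sohlh2 knockout, against 11.2% and 8.82% of all probe sets. Of the 6 in the Sohlh1 knockout 3 lay above wild type, beside 5.07% of all, and 3 below, beside 6.08%. Of the 4 in the Sohlh2 knockout 3 lay above, beside 4.14%, and 1 below, beside 4.69%. The median difference of the 10 was 0.11 in the Sohlh1 knockout and 0.23 in the Sohlh2 knockout, beside -0.0027 and -0.0038 over all probe sets. The Sohlh1 median ran from 0.0087 without wild type 3 to 0.16 without wild type 5, and it was 0.05 without wild type 4. The single values spread widely around these medians, between -0.51 and 0.74 in the Sohlh1 knockout and between -0.40 and 0.77 in the Sohlh2 knockout. Without the 3 doubted arrays, which leaves only replicates 3 and 4 of the Sohlh1 knockout, 3 were called in that knockout, beside 1.7% of all probe sets in that fit. In the Sohlh2 knockout 4 were called, beside 2.67%. Hormad1, Syce1 and Syce2 were called in each, and Sycp2 in the Sohlh2 knockout.

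**Figure D3:**
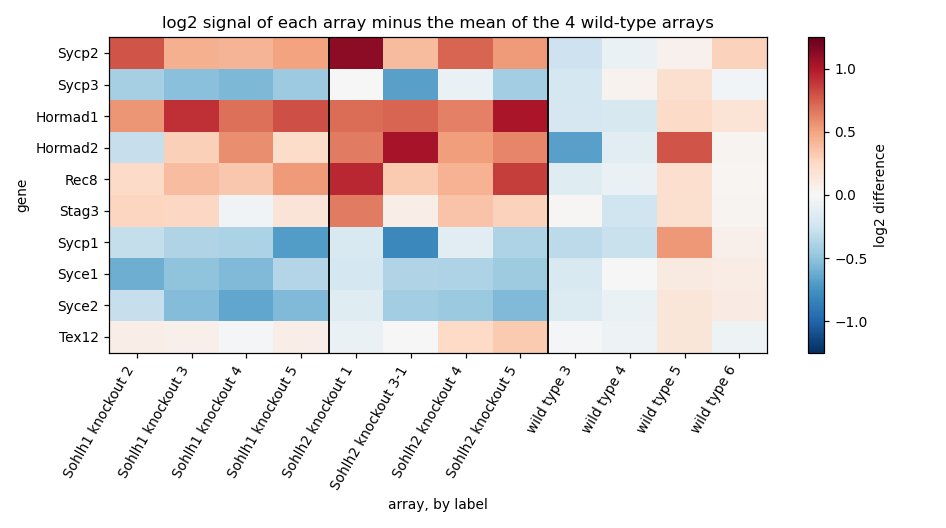
Difference of each array's log2 signal from the mean of the 4 wild-type arrays, with genes in rows and the arrays of the Sohlh1 knockout, the Sohlh2 knockout and wild type from left to right; red is higher and blue is lower. Hormad1, Sycp2 and Rec8 are red and Syce1 and Syce2 are blue on all 8 knockout arrays, while wild type 5 stands out for Sycp1 and Hormad2.

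No gene differed between the knockouts by the direct test of Sohlh2 against Sohlh1 knockout arrays. By limma 0 of 10 were called, where 0% of all probe sets were called, and 0 of 10 had an unadjusted p under 0.05, where 2.67% of all probe sets did. All 10 point estimates were above 0, from 0.03 for Hormad1 to 0.50 for Hormad2. The 95% interval was -0.28 to 0.34 for Hormad1, -0.06 to 0.36 for Syce1, -0.13 to 0.34 for Syce2 and -0.19 to 0.49 for Sycp2. For Rec8 it ran from -0.06 to 0.60. These intervals leave room for differences of either sign, and the 2 arrays with targeted genes against their labels lie 1 in each group. Without those 2 arrays 0 of the 10 were called either, and 9 of all probe sets were.

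Levels of germ cells and other cells bear on these values, since in whole testis fewer cells of a type and less RNA per cell cannot be told apart. Of 7 markers of germ cells at any stage, 0 were called in either knockout. Their summed signal was 23064 to 27138 in the Sohlh1 knockout, 24108 to 27065 in the Sohlh2 knockout and 25427 to 27630 in wild type. Their mean log2 signal differed from wild type by -0.09 in the Sohlh1 knockout (exact permutation p = 0.257, two-sided) and by -0.09 in the Sohlh2 knockout (exact permutation p = 0.171), where 0.0286 is the smallest p that 4 against 4 arrays allow. When each array was shifted by that mean, a choice made after seeing the data, Hormad1 was higher by 0.83 (adjusted p = 0.00608) in the Sohlh1 knockout and by 0.85 (adjusted p = 0.00575) in the Sohlh2 knockout. On that scale Rec8 rose in the Sohlh2 knockout (0.73, adjusted p = 0.0421), and neither Syce1 (-0.42, adjusted p = 0.0900) nor Syce2 (-0.42, adjusted p = 0.175) passed in the Sohlh1 knockout. Markers of germ cell stages differed with genotype. Of 7 markers of differentiating spermatogonia 5 fell in the Sohlh1 knockout and 4 in the Sohlh2 knockout, and this list holds Sohlh1 and Sohlh2 themselves. Its summed signal was 5427 to 6776 in the Sohlh1 knockout, 5083 to 7582 in the Sohlh2 knockout and 10909 to 14107 in wild type, with no overlap between knockout and wild type. Of 6 markers of undifferentiated spermatogonia 2 rose in each knockout and none fell, with summed signals of 5440 to 7763 in the Sohlh1 knockout, 5491 to 8009 in the Sohlh2 knockout and 5488 to 5975 in wild type. Of the 12 markers of pachytene and later stages 6 were tested and 0 called by limma, with summed signals of 1031 to 1235 in the Sohlh1 knockout, 1015 to 1298 in the Sohlh2 knockout and 956 to 1121 in wild type. The part of these marker differences in the differences of the 10 genes was not tested. Among 7 Sertoli, 4 Leydig, 5 peritubular, 5 endothelial, 6 leukocyte, 1 erythroid and 1 adipose marker tested none was called in either comparison.

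Further genes of these structures, and of the control of meiosis, were taken from 4 lists. Each gene had 1 probe set, that of highest mean signal over the 12 arrays. The first held 20 other genes of the meiotic axis, synaptonemal complex, cohesin and their partners, of which 15 had a named probe set and 14 were tested. Of these 3 fell and none rose in the Sohlh1 knockout, and 2 fell and 1 rose in the Sohlh2 knockout. The list median was -0.03 in the Sohlh1 knockout and 0.04 in the Sohlh2 knockout. The riser was Six6os1, a further protein of the central element, listed in the annotation as 4930447C04Rik. It averaged 517 ± 75.7 in the Sohlh1 knockout, 608 ± 102 in the Sohlh2 knockout and 356 ± 22.4 in wild type (SD, n = 4 each). Its log2 fold change was 0.51 (adjusted p = 0.0786) in the Sohlh1 knockout and 0.74 (SE 0.14, limma adjusted p = 0.0151) in the Sohlh2 knockout, a call kept in 8 of 12 fits that left out 1 array. Syce3, the smallest protein of the central element, had 0.40 (adjusted p = 0.163) in the Sohlh1 knockout and 0.43 (adjusted p = 0.152) in the Sohlh2 knockout. The meiotic cohesin subunit Smc1b had 0.20 (adjusted p = 0.599) in the Sohlh1 knockout and 0.38 (adjusted p = 0.303) in the Sohlh2 knockout.

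The falls on that list were those of Tex11, Trip13 and Mei4. Tex11, an X-linked gene of crossover formation, averaged 756 ± 86.6 in the Sohlh1 knockout, 852 ± 81.4 in the Sohlh2 knockout and 1572 ± 153 in wild type (SD, n = 4 each). It fell in the Sohlh1 knockout (-1.04, limma adjusted p = 0.000213) and in the Sohlh2 knockout (-0.87, limma adjusted p = 0.000946), both called in all 12 fits that left out 1 array. Trip13 encodes the ATPase that takes HORMAD proteins off synapsed axes. It averaged 2127 ± 290 in the Sohlh1 knockout, 2048 ± 148 in the Sohlh2 knockout and 2957 ± 334 in wild type (SD, n = 4 each), with log2 fold changes of -0.48 (limma adjusted p = 0.0440) in the Sohlh1 knockout and -0.52 (limma adjusted p = 0.0326) in the Sohlh2 knockout. With 1 array left out Trip13 was called in 3 of 12 fits for the Sohlh1 knockout and in 7 of 12 for the Sohlh2 knockout. Mei4, needed to form the DNA breaks of recombination, fell in the Sohlh1 knockout (-0.85, limma adjusted p = 0.0269, called in 5 of 12 such fits) and had -0.42 (adjusted p = 0.332) in the Sohlh2 knockout.

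Cohesin genes that also serve mitosis gave few calls. Of 17 tested, 1 fell in the Sohlh1 knockout and none was called in the Sohlh2 knockout, with medians of -0.11 and -0.16. The Sohlh2 knockout values ran from -0.53 to 0.38. The single call was Cdca5, which encodes sororin, a protector of cohesion (-0.47, limma adjusted p = 0.0483 in the Sohlh1 knockout, called in 2 of 12 fits that left out 1 array). It had -0.37 (adjusted p = 0.148) in the Sohlh2 knockout.

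Of 12 genes known as repressors of meiotic genes in other cells or stages, 2 fell in the Sohlh1 knockout and 1 in the Sohlh2 knockout, and none rose. Dnmt3b, a de novo DNA methyltransferase, averaged 983 ± 226 in the Sohlh1 knockout, 931 ± 177 in the Sohlh2 knockout and 2138 ± 157 in wild type (SD, n = 4 each). It fell by 1.13 (limma adjusted p = 0.00137) in the Sohlh1 knockout and the Sohlh2 knockout value was -1.201 (limma adjusted p = 0.000946), both called in all 12 fits with 1 array left out. Ehmt2, a histone H3 methyltransferase, fell in the Sohlh1 knockout (-0.50, limma adjusted p = 0.0437, called in 2 of 12 such fits) and had -0.40 (adjusted p = 0.127) in the Sohlh2 knockout. E2f6, a transcriptional repressor, had 0.21 (adjusted p = 0.421) in the Sohlh1 knockout and 0.10 (adjusted p = 0.738) in the Sohlh2 knockout.

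Of 8 genes listed for the control of meiotic entry, in either direction, 7 were tested. Dmrtb1, a doublesex-related factor, fell by 2.51 (limma adjusted p = 7.11e-05) in the Sohlh1 knockout and fell by 2.21 (limma adjusted p = 0.000272) in the Sohlh2 knockout. Dmrt1, its relative, fell in the Sohlh2 knockout (-0.32, limma adjusted p = 0.0352, called in 3 of 12 fits with 1 array left out) and had -0.28 (adjusted p = 0.0627) in the Sohlh1 knockout. Stra8, the retinoic acid target that starts meiosis, did not pass in either (-0.46, adjusted p = 0.110 in the Sohlh1 knockout, and -0.38, adjusted p = 0.215 in the Sohlh2 knockout). Over the 4 lists, with 14, 17, 12 and 7 genes tested, 7 genes were called in the Sohlh1 knockout and 6 in the Sohlh2 knockout. Of all probe sets 2.09% and 1.55% were called. In a fit with 1 probe set per gene these shares were 4.41% and 3.74%.

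**Figure D4:**
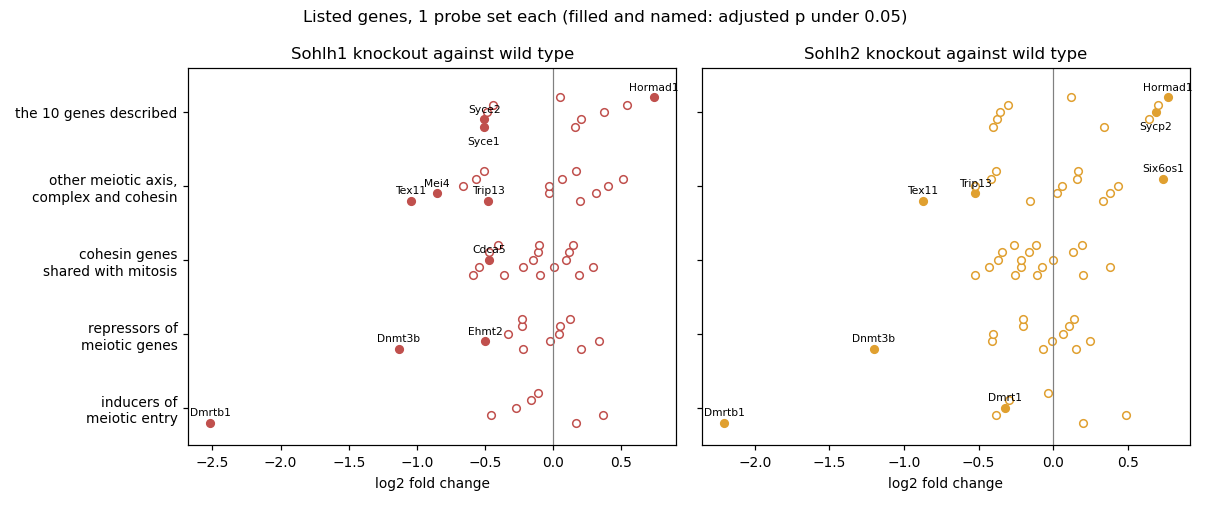
Log2 fold change against wild type of the 10 genes and of the tested genes on 4 lists, with the Sohlh1 knockout in the left panel and the Sohlh2 knockout in the right; each point is 1 gene, and filled, named points have an adjusted p under 0.05. The row labelled inducers holds the genes listed for the control of meiotic entry, in either direction. Most listed genes lie within 0.5 of 0, and Dmrtb1, Dnmt3b and Tex11 lie furthest to the left in both panels.

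The genes with the most similar profiles over the 12 arrays were read off for the 4 genes called, as a description in which genotype is shared by all points. Hormad1 was closest to Zkscan1 (Pearson r = 0.955), Irf8 (0.941) and Six6os1, listed as 4930447C04Rik (0.938). Sycp2 was closest to Tmem130 (0.963), Ift43 (0.936) and Myt1l (0.932). Syce1 was closest to Polr2e (0.977), Sdad1 (0.970) and Rbm38 (0.960), and Syce2 to Uimc1 (0.976), Nup133 (0.976) and Nmt2 (0.971). Among the members, 2 sets were picked by the direction of their knockout means in these same arrays. Sycp1, Sycp3, Syce1 and Syce2 were lower, and Sycp2, Hormad1 and Rec8 higher, though Sycp1, Sycp3 and Rec8 were uncalled. The 12 pairs between the sets had r from -0.729 to -0.169 over 12 arrays, a sign that the picking favours. Once each group's mean was taken off, those pairs had r from -0.0204 to 0.862. By the same measure r was 0.329 to 0.738 within the lower set and 0.0269 to 0.599 within the higher set.

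Promoter sequence is shown for the 4 genes called in at least 1 knockout, so that those called higher and those called lower can be read side by side. Each is the 250 bases before the annotated start, 5′ to 3′ on the gene's strand, from RefSeq on GRCm38.p6. Capitals mark CACGTG, the symmetric E-box that many basic helix-loop-helix factors bind, and TCCCGC or its reverse complement, the core of an E2F site. Hormad1 lies at chr3:95559427-95559676 (plus strand), Sycp2 at chr2:178407659-178407908 (minus strand), Syce1 at chr7:140787855-140788104 (minus strand) and Syce2, at the first of 2 annotated starts, at chr8:84871861-84872110 (plus strand).
Hormad1: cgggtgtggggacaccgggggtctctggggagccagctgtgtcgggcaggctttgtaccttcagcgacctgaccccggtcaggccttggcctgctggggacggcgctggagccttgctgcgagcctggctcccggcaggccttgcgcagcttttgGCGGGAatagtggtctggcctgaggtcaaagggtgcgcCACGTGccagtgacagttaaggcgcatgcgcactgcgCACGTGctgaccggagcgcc
Sycp2: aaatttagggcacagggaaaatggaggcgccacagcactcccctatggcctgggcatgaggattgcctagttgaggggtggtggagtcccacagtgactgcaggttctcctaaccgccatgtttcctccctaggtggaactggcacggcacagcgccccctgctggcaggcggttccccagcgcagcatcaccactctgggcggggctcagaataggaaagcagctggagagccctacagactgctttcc
Syce1: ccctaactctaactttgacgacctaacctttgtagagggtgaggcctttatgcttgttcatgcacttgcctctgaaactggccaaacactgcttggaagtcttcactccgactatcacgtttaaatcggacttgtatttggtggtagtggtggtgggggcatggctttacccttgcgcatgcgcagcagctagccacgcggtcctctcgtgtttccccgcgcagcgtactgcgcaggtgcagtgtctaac
Syce2: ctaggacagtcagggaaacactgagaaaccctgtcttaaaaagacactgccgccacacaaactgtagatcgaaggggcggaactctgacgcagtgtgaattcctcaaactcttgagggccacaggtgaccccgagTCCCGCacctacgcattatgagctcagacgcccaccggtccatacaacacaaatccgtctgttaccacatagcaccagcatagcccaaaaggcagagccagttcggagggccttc
The Hormad1 window, of the gene higher in both knockouts, held CACGTG at 57 and 20 bases and TCCCGC at 95 bases before the start. The Sycp2 and Syce1 windows held neither, although the first gene was higher and the second lower in knockout means. The Syce2 window shown held TCCCGC at 115 bases, and that of its second start held CACGTG at 88 bases and TCCCGC at 34.

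All 10 genes matched the RefSeq promoter table, with 12 annotated starts. Searched on both strands, CACGTG lay before at least 1 start of 6 of 10 genes, which were Sycp1, Sycp3, Syce2, Tex12, Hormad1 and Stag3, and of 6.86% of the 27025 genes in the table. TCCCGC lay before 5 of 10 genes (Sycp3, Syce2, Tex12, Hormad1 and Rec8) and 18.8% of all genes. The looser E-box CANNTG, which includes CACGTG, lay before 9 of 10 genes and 69.3% of all genes, with Hormad2 as the gene without it. The members' windows were richer in G and C (median 60.2%) than all windows (52.4%), and the shares are not matched for that. The 6 genes with CACGTG include Hormad1, called higher, Syce2, called lower, and the uncalled Tex12.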

How the data were processed

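RNA of 12 pools of day-7 testes was hybridised to Affymetrix arrays. The deposited values are linear signal intensities. The submitters' processing notes name GCOS and MAS5, with no version or setting. Each array had a trimmed mean of 500.003 (2% removed at each end), with medians from 76.6 to 90.7. No further normalization was applied. Intensities were turned to log2(signal + 14.2), the 20th percentile. A probe set was tested if at least 4 of 12 arrays exceeded 48.6, the 40th percentile, and 64 controls were left out. Differences were tested two-sided with limma 3.58.1 in R 4.3.3 (eBayes with a mean-variance trend), with genotype as the only term over all 12 arrays, after tests on simulated data. Genes were named from the platform's annotation, where 34945 probe sets had 1 symbol, 932 several and 9160 none.

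Every probe set was a feature in the fit, because the members are probe sets. Named beside the members were Sohlh1, Sohlh2, list genes called in either knockout or, failing that, the 2 with the smallest p, and the 3 closest profiles of each called member. Syce3, Smc1b, E2f6 and Stra8 were added after their values were seen. Members and lists were chosen with earlier results of these data known. Alternatives were 33 planned settings and 1 added later; arrays were never moved between groups. All arrays differed from each other, with correlations of 0.93 to 0.98. Groups, replicate names, age and pooling came from the labels, and no batch or date is given there.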

Additional observations from a re-analysis of the deposited data

How the results depend on the processing

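The direction of all called differences of the 10 genes held under the 32 alternatives that kept the threshold of 0.05, for 3 of 3 in the Sohlh1 knockout and 2 of 2 in the Sohlh2 knockout. Hormad1 was called in 29 of the 32 in each knockout, Syce1 in 25 and Syce2 in 23 in the Sohlh1 knockout, and Sycp2 in 18 in the Sohlh2 knockout. Among uncalled differences from wild type only Hormad2 in the Sohlh1 knockout changed sign, to -0.02 at the lowest.

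The count of called members depended on the processing. Shares in brackets are those of all probe sets called in the same fit. In the Sohlh1 knockout the count was 3 as reported (2.09%), and 5 with array weights (4.28%) or a covariate for the 3' to 5' ratio (4.29%). It was 1 relative to the germ cell markers (1.37%) and 0 at a threshold of 0.01 (0.638%). With 1 array left out it ran from 0 without wild type 4 (0.969%) to 5 without the array labelled Sohlh2 knockout 1 (4.31%). In the Sohlh2 knockout the count was 2 as reported (1.55%) and 5 with array weights (3.75%). It was 4 with quantile normalization (1.84%), 1 probe set per gene (3.74%), the ratio as a covariate (2.75%) or a threshold of 0.10 (2.85%). It was also 4 without the 2 arrays of high ratio (2.6%) or all 3 doubted arrays (2.67%). It was 1 without a filter (0.795%), without the variance trend (1.02%) or with only the 2 groups compared (0.986%). At a threshold of 0.01 it was 0 (0.502%). With 1 array left out it ran from 0 without wild type 4 (0.704%) or the array labelled Sohlh2 knockout 5 (0.965%) to 3 without that labelled 3-1 (1.0%). Counts over the 4 lists were 7 in the Sohlh1 knockout (2.09%). They were 13 with 1 probe set per gene (4.41%), array weights (4.28%) or a threshold of 0.10 (3.61%), and 14 with the ratio as a covariate (4.29%). They were 4 without trend (1.2%) and 3 without a filter (0.921%) or at 0.01 (0.638%). With 1 array left out they were 3 to 13, in fits that called 0.802% to 4.31% of all probe sets. In the Sohlh2 knockout they were 6 (1.55%), 10 with array weights (3.75%), and 11 without the high-ratio arrays (2.6%) or all 3 doubted arrays (2.67%). At 0.01 they were 3 (0.502%). With 1 array left out they were 3 to 7, in fits that called 0.704% to 1.75% of all probe sets.

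Over all probe sets 600 were called in the Sohlh1 knockout and 445 in the Sohlh2 knockout, with single arrays left out giving 230 to 1238 and 202 to 503. In the Sohlh1 knockout it was 1227 with array weights, 1230 with the covariate, 991 without the high-ratio arrays, 375 with the mean of a gene's probe sets, 343 without trend, 394 relative to the germ cell markers, 183 at 0.01 and 1036 at 0.10. In the Sohlh2 knockout it was 1075 with array weights, 789 with the covariate, 747 without the high-ratio arrays, 767 without all 3 doubted arrays, 293 without trend, 283 with only the 2 groups, 144 at 0.01 and 819 at 0.10. Between the knockouts 0 became 9 without the arrays labelled Sohlh1 knockout 5 and Sohlh2 knockout 1, and 11 without all 3. The causes of these shifts were not tested. Arrays that share a replicate number did not deviate together (correlations -0.117 to 0.101 over 9 pairs), and 0 of 6 numbered arrays of Sohlh1 knockout and wild type, or of Sohlh2 knockout and wild type, correlated best with their own number, and 2 of 6 between the knockouts did. With a replicate block in which 3-1 stood alone, 2 members (Hormad1 and Syce2) were called in the Sohlh1 knockout and 0 in the Sohlh2 knockout, 4 and 3 list genes in the Sohlh1 and Sohlh2 knockouts, and 338 and 98 of all probe sets. Syce1 lost its Sohlh1 call under that block (-0.44, adjusted p = 0.0754) and with 3-1 as replicate 3 (adjusted p = 0.0550).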
